A study of Mus musculus with 52 samples.

Results

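The levels of 10 target genes of the transcription factor p53 were read in wild-type mice and in mice lacking the Tug1 long non-coding RNA. The genes are Cdkn1a, Mdm2, Ccng1, Bax, Trp53inp1, Phlda3, Bbc3, Sesn2, Eda2r and Zmat3. They were taken by gene name from the 39144 genes listed in at least 1 of 8 tissues, and all 10 were listed in every tissue. RNA was sequenced from testes (4 wild-type, 4 Tug1-/- and 3 rescue samples), prostate (3 wild-type and 2 Tug1-/- samples) and, with 3 samples per genotype, from spleen, liver, heart, eyes and mouse embryonic fibroblasts (MEFs, primary cells grown from embryos and used at passage 2). Brain was read from a wild-type and Tug1-/- dataset made outside these 52 samples. The Tug1-/- mice carry the Tug1 tm1.1Vlcg allele, a deletion that swaps the transcribed body of the gene, past exon 1, for lacZ, so that the native promoter drives the reporter. For the samples of the series used here, the labels give males of background C57BL/6J/129S6 and no age. For testes the labels list Neo and LacZ in the Tug1-/- and rescue groups and no Neo in wild type, and for the other tissues of the series they list no Neo in both genotypes. The paper's methods state that mice without the neomycin gene were chosen to expand the colony. Rescue mice were Tug1-/- and carried tg(Tug1), a doxycycline-driven transgene of an isoform without the 5′ region, together with CAGs-rtTA3, and were fed doxycycline. That transgene had inserted at random and came from 2 founder lines.

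p53 is kept scarce in resting cells because the ubiquitin ligase encoded by Mdm2 marks it for destruction. DNA damage and other stresses free it, and it then binds DNA at pairs of half-sites and switches on genes that halt the cell cycle, repair DNA or start cell death. Mdm2 is itself a target, which closes a negative feedback loop. Several of these genes also answer to other regulators, so their levels are not a measure of p53 alone.

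The values read here are the authors' mean for each group, and no values of single samples were read. Levels are in TPM, a unit that divides reads by gene length and scales every library to the same total, so that levels can be set side by side between genes. The tables also carry the authors' own fold changes, standard errors and p-values, which were not used here. No spread over animals, interval or p-value is therefore given, and whether a difference exceeds the spread between animals was not assessed. A difference is given as a log2 ratio of 2 means after adding 0.1 TPM to each, for genes whose 2 means average at least 1 TPM. A ratio of 1.5-fold or more is the size singled out below, and the share of all genes past it in a comparison is given with the counts of the 10 genes and of the p53 lists. In the organs, which were taken whole, fewer cells of a type and less RNA per cell cannot be told apart.

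The promoters of 8 of the genes were matched to RefSeq windows on GRCm38.p6 that run from 250 bases before to 50 bases after the gene start. Trp53inp1 and Zmat3 had no entry. The windows were searched for the p53 half-site consensus, which reads the same on both strands, because p53 acts through such sites. It was present in 4 of the 8 genes (Cdkn1a, Mdm2, Ccng1 and Bax) and in 8.36% of all 32851 windows, or 9.55% of 27025 genes. Each match is shown in capitals with 10 bases on either side, 5′ to 3′ on the strand of the gene.
Cdkn1a, chr17:29090918-29090947, plus strand: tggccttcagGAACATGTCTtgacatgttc
Cdkn1a, chr17:29090896-29090925, plus strand: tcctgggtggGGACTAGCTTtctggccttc
Mdm2, chr10:117710925-117710954, minus strand: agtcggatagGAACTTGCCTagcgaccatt
Ccng1, chr11:40755452-40755481, minus strand: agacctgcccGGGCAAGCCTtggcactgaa
Bax, chr7:45467080-45467109, minus strand: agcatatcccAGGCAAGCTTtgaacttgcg
The first Cdkn1a match begins 51 bases before the start, and the 10 bases that follow it differ from a further half-site at 1 position. In Ccng1 the 10 bases that precede the match also differ from a half-site at 1 position. Cdkn1a has 2 windows, and both matches lie in the one of the upstream start. The letters of the half-site were not in the windows of Phlda3, Bbc3, Sesn2 or Eda2r. Sites outside the windows, further upstream or within the genes, were not searched for in any of the genes. A match is a description of the letters, and occupancy by p53 was not measured.

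The genes lie on 8 chromosomes and were counted over the gene models of GRCm38 (mm10). Cdkn1a (ENSMUSG00000023067) spans chr17:29090979-29100722, Mdm2 (ENSMUSG00000020184) chr10:117688875-117710758, Ccng1 (ENSMUSG00000020326) chr11:40748552-40755311 and Bax (ENSMUSG00000003873) chr7:45461697-45466898. Bbc3 (ENSMUSG00000002083) is also on chromosome 7, at chr7:16308393-16318205. Trp53inp1 (ENSMUSG00000028211) at chr4:11156431-11174379 and Sesn2 (ENSMUSG00000028893) at chr4:132492032-132510501 share chromosome 4. Phlda3 (ENSMUSG00000041801) spans chr1:135766119-135769136, Zmat3 (ENSMUSG00000027663) chr3:32334792-32366014 and Eda2r (ENSMUSG00000034457) chrX:97333840-97377216. All are annotated as protein-coding. Bax overlaps Gm45808 and Sesn2 overlaps Gm12981 on the same strand, so reads in the shared parts could have been split.

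Tug1 itself was read first. Its mean was between 10.1 TPM in liver and 57.5 TPM in eyes of wild-type animals, and Tug1-/- samples held 2.21% of the wild-type mean in testes and at most 0.512% in each of the other 7 tissues. Rescue testes held 1.60 TPM against 40.1 TPM in wild type. Each tissue held its own 3 marker genes at a summed wild-type level above every other tissue, from 2.63 times the next tissue for brain to 32185 times for prostate.

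In wild-type animals 9 of the 10 genes had their highest level in MEFs, against 15% of the 15586 genes that were listed in all tissues and averaged at least 1 TPM. The exception was Trp53inp1, highest in spleen at 136 TPM with MEFs next at 115 TPM. The MEF level was 3.8 to 99.3 times the median of the other 7 tissues (0.1 TPM added to both), with a median over the 10 genes of 7.86 and of 1.17 over all genes. MEFs came from embryos and were grown in culture, while the organs, which the paper calls adult, were frozen directly. Cell type, stage of development and culture therefore cannot be told apart in this difference. The testes table and the brain libraries were made apart from the rest, which bears on any level set across them.

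Cdkn1a and Phlda3 spanned the widest ranges. Cdkn1a encodes p21, the inhibitor of cyclin-dependent kinases through which p53 halts the cell cycle. Its wild-type mean was 1156 TPM in MEFs and 0.981 TPM in liver, 1179 times apart, with brain at 54.2, eyes at 29.9, spleen at 14.4, heart at 11.5, testes at 11.2 and prostate at 10.3 TPM. The 4 lowest organs above liver lay close together, and without single samples their order cannot be separated. Phlda3, a repressor of Akt signalling, spanned 482 TPM in MEFs to 0.722 TPM in liver. Eda2r, a receptor for ectodysplasin A2, spanned 92.6 TPM in MEFs to 0.272 TPM in testes. Bbc3, which encodes the cell death protein Puma, varied least, from 31.9 TPM in MEFs to 2.71 TPM in heart, or 11.8-fold. Liver was the lowest tissue for 4 genes (Cdkn1a, Mdm2, Phlda3 and Zmat3), testes for 3 (Ccng1, Bax and Eda2r) and heart for 3 (Trp53inp1, Bbc3 and Sesn2).

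The genes did not share 1 order of tissues. Mdm2 and Sesn2 were next highest in testes, at 107 and 25.5 TPM. Ccng1, the gene of cyclin G1, was next highest in heart at 643 TPM, where Sesn2 was at its lowest. Over the 8 wild-type means the 45 pairs of genes had Pearson correlations of log2(TPM + 1) from 0.19 (Trp53inp1 with Ccng1) to 0.92 (Cdkn1a with Phlda3), with a median of 0.68. Leaving out MEFs the median was 0.33 and the range -0.46 to 0.90. These are descriptions over 8 and 7 means, which share the same libraries. Outside the 10 genes, the levels most like Cdkn1a over the 17 group means were those of Dcbld2 (r = 0.98), Sox4 (r = 0.98) and Sparc (r = 0.97). The group means include MEFs of both genotypes, and these correlations were not computed without MEFs. Sparc stood at 5788 TPM in MEFs and 27.4 TPM in liver.

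**Figure D1:**
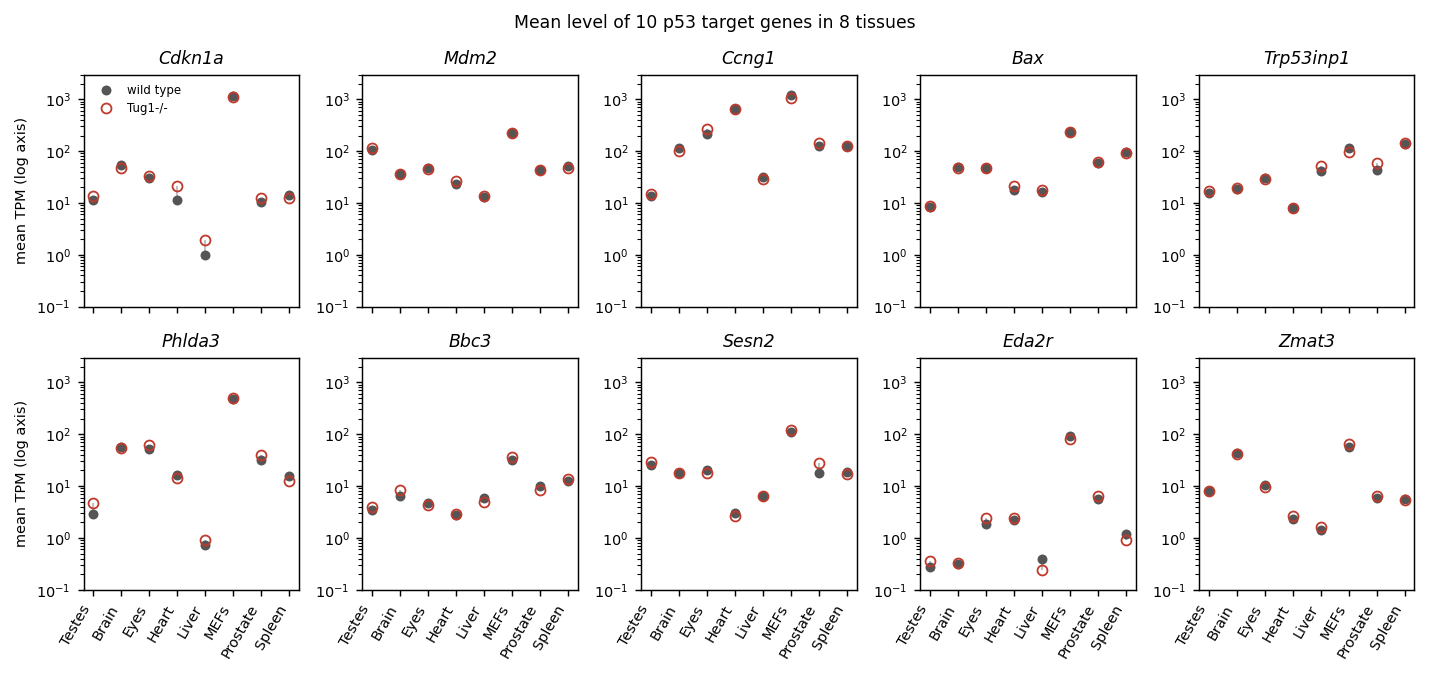
Mean level of each of the 10 genes in the 8 tissues, in TPM on a log axis, with filled points for wild type and open points for Tug1-/-. The points of both genotypes nearly coincide in most tissues, the MEF level is the highest for every gene except Trp53inp1, and Cdkn1a in heart and liver has the open point visibly above the filled one. Points are the authors' means, with no error shown.

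Loss of Tug1 was set against wild type in each tissue, which asks whether p53 targets differ in its absence. Of 80 pairs of gene and tissue, 76 passed the filter on low levels, 4 were at least 1.5-fold higher in Tug1-/- and 0 were 1.5-fold lower. That is 5.26% of the pairs higher, where over all genes of the 8 tissues 3.02% of 130180 pairs were higher and 3.02% lower. The 4 pairs below the filter were Eda2r in testes, brain and liver and Phlda3 in liver. The 4 higher pairs were Phlda3 in testes, Cdkn1a in heart, Cdkn1a in liver and Sesn2 in prostate. Cdkn1a in liver passed the filter through its Tug1-/- mean alone, its wild-type mean being under 1 TPM, so that call is tied to the filter. Just inside the threshold was Trp53inp1 in prostate at 1.34-fold, and just outside it Sesn2 in prostate at 1.52-fold.

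**Figure D2:**
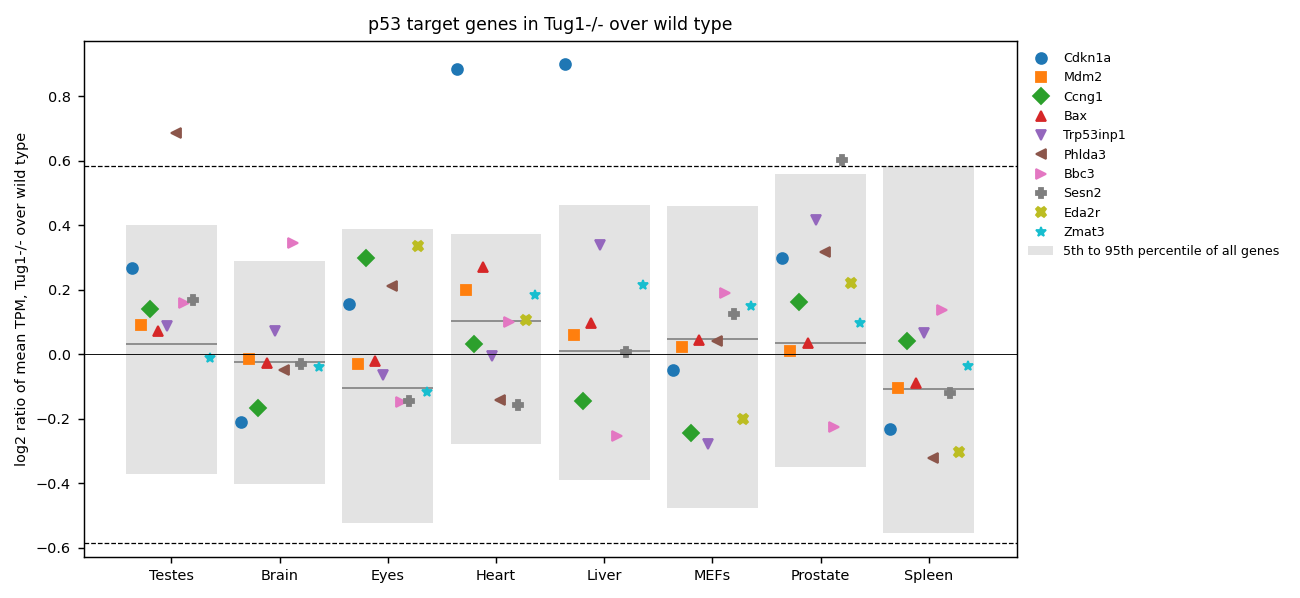
log2 ratio of mean TPM, Tug1-/- over wild type, for each gene (coloured symbols) in each tissue. Grey boxes span the 5th to 95th percentile of all genes past the filter, the grey line is their median and dashed lines mark 1.5-fold. Phlda3 in testes, Cdkn1a in heart and liver and Sesn2 in prostate lie above the upper dashed line, and Bbc3 in brain is the other symbol above its box.

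The cell cycle inhibitor gene Cdkn1a comes first. Cdkn1a in heart had a wild-type mean of 11.5 TPM and a Tug1-/- mean of 21.4 TPM, a log2 ratio of 0.88 (1.84-fold). In heart 1.67% of 13701 genes were at least 1.5-fold higher and 1.82% lower. In liver its wild-type mean was 0.981 TPM and its Tug1-/- mean 1.92 TPM, a log2 ratio of 0.90 (1.86-fold), where 2.97% of 11849 genes were 1.5-fold higher and 2.25% lower. The liver value rested on few reads, a mean normalized count of 57.5 over both genotypes against 724 in heart. Elsewhere Cdkn1a in wild type and Tug1-/- was at 11.2 and 13.5 TPM in testes, 54.2 and 46.9 in brain, 29.9 and 33.3 in eyes, 1156 and 1118 in MEFs, 10.3 and 12.7 in prostate and 14.4 and 12.3 in spleen. It was thus higher in 5 of 8 tissues, and its log2 ratios ran from -0.23 in spleen to 0.90 in liver, the widest range of the 10 genes.

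Heart and liver of Tug1-/- animals also differed in genes of other marker lists. All 8 genes of a macrophage list (among them Adgre1, Cd68 and Csf1r) were higher in Tug1-/- in both, with a summed level of 639 against 797 TPM in heart and 281 against 425 TPM in liver (wild type first), and 1 and 2 of them passed 1.5-fold. In liver the 2 Leydig-list genes listed there summed to 8.45 and 35.8 TPM, and 1 of them was 1.5-fold higher. They are not read as a sign of Leydig cells in that organ. The 4 B-cell genes were 1.5-fold lower in heart, from a summed 40.1 to 18.4 TPM, and the 6 erythroid genes summed to 44634 TPM in wild-type and 34960 TPM in knockout heart. Their part in the Cdkn1a difference was not tested.

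Ccng1 was past 1.5-fold in 0 of 8 tissues. Its wild-type and Tug1-/- means were 13.4 and 14.8 TPM in testes, 115 and 103 in brain, 218 and 269 in eyes, 643 and 657 in heart, 31.5 and 28.5 in liver, 1226 and 1035 in MEFs, 126 and 141 in prostate and 123 and 127 in spleen. The log2 ratio ran from -0.24 in MEFs to 0.30 in eyes. In MEFs 3.09% of 14450 genes were 1.5-fold higher and 3.34% lower, and none of the 10 genes was in either share.

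Mdm2, the feedback inhibitor, varied least between genotypes. Its means in wild type and Tug1-/- were 107 and 114 TPM in testes, 36.2 and 35.8 in brain, 46.2 and 45.3 in eyes, 23.6 and 27.1 in heart, 13.3 and 13.9 in liver, 224 and 228 in MEFs, 43.3 and 43.6 in prostate and 50.6 and 47.0 in spleen. Its log2 ratios lay between -0.10 and 0.20, the narrowest range of the 10. The 0.20 in heart stood beside a median of 0.10 over all genes there.

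Of the genes of cell death, Bax encodes a pore-forming protein of the mitochondrial membrane and Bbc3 a protein that activates it. Bax was at 8.47 and 8.91 TPM in testes, 48.8 and 47.9 in brain, 47.6 and 46.9 in eyes, 17.8 and 21.5 in heart, 16.5 and 17.7 in liver, 230 and 237 in MEFs, 59.0 and 60.4 in prostate and 96.7 and 90.8 in spleen (wild type, then Tug1-/-). Its log2 ratio was largest in heart, at 0.27. Bbc3 was at 3.53 and 3.95 TPM in testes, 6.57 and 8.37 in brain, 4.72 and 4.25 in eyes, 2.71 and 2.91 in heart, 6.00 and 5.01 in liver, 31.9 and 36.3 in MEFs, 9.99 and 8.53 in prostate and 12.7 and 14.0 in spleen. Its brain log2 ratio of 0.35 was above the 95th percentile of all genes in brain (0.29), at a mean normalized count of 66.8. In brain 1.72% of 17244 genes were 1.5-fold higher and 3% lower, and none of the 9 members past the filter was among them.

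Eda2r was low in most tissues. Its means were 1.86 and 2.38 TPM in eyes, 2.21 and 2.38 in heart, 92.6 and 80.6 in MEFs, 5.59 and 6.54 in prostate and 1.16 and 0.924 in spleen. Below the filter it stood at 0.272 and 0.364 TPM in testes, 0.316 and 0.334 in brain and 0.387 and 0.245 in liver. In brain that was a mean normalized count of 8.54.

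Trp53inp1, a nuclear protein that modulates p53 and acts in autophagy, was at 15.9 and 16.9 TPM in testes, 18.9 and 19.9 in brain, 30.1 and 28.8 in eyes, 8.14 and 8.11 in heart, 40.7 and 51.5 in liver, 115 and 94.6 in MEFs, 44.0 and 58.9 in prostate and 136 and 143 in spleen. Its log2 ratios were largest in prostate (0.42) and liver (0.34) and lowest in MEFs (-0.28). Zmat3, an RNA-binding zinc finger protein, was at 8.14 and 8.08 TPM in testes, 43.1 and 41.9 in brain, 10.4 and 9.56 in eyes, 2.33 and 2.66 in heart, 1.40 and 1.64 in liver, 57.7 and 64.0 in MEFs, 5.98 and 6.41 in prostate and 5.62 and 5.48 in spleen. Its log2 ratios stayed between -0.12 and 0.22.

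Sesn2 encodes Sestrin 2, a stress protein that restrains mTORC1. In prostate the wild-type mean was 17.9 TPM and the Tug1-/- mean 27.3 TPM, a log2 ratio of 0.60 (1.52-fold), at a mean normalized count of 991. In prostate 4.67% of 15110 genes were 1.5-fold higher and 2.05% lower. This was the smallest of the 4 differences, and it lay under 1.5-fold after the median of all genes was set to 0 (0.57) or after TPM was rescaled over protein-coding genes (0.55). The other Sesn2 means were 25.5 and 28.7 TPM in testes, 18.0 and 17.6 in brain, 20.1 and 18.1 in eyes, 3.02 and 2.70 in heart, 6.37 and 6.40 in liver, 112 and 122 in MEFs and 18.5 and 17 in spleen.

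In prostate 9 of 10 genes were higher in Tug1-/- by any amount, Bbc3 being the exception, against 59% of all genes, and 7 of 10 lay above the median of all genes. Their median log2 ratio was 0.19 against 0.04 over all genes. The Tug1-/- mean came from 2 samples. In the same comparison all 8 macrophage genes were higher and 6 passed 1.5-fold, with a sum of 255 TPM against 403 TPM in Tug1-/-, and the erythroid sum was 162 and 292 TPM. The summed level of the 4 Sertoli-cell genes listed there, which include the widely expressed Clu, was 64.8 and 165 TPM. Their part in the prostate values was not tested.

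In testes 8 of the 9 genes past the filter were higher in Tug1-/-, against 62.1% of 21813 genes, and 8 of 9 lay above the median of all genes, with a median log2 ratio of 0.14 against 0.03 over all genes. Phlda3 was the one past 1.5-fold, with a wild-type mean of 2.88 TPM and a Tug1-/- mean of 4.69 TPM (log2 ratio 0.69, 1.61-fold), where 2.34% of all genes were 1.5-fold higher and 2.9% lower. Cdkn1a followed at a log2 ratio of 0.27, Sesn2 at 0.17, Bbc3 at 0.16 and Ccng1 at 0.14, and Zmat3 was the one that was lower, at -0.01. Elsewhere Phlda3 in wild type and Tug1-/- was at 56.0 and 54.2 TPM in brain, 52.8 and 61.0 in eyes, 16.0 and 14.5 in heart, 482 and 495 in MEFs, 32.4 and 40.4 in prostate and 15.9 and 12.7 in spleen. In liver it was below the filter, at 0.722 and 0.921 TPM. Its lowest log2 ratio was -0.32 in spleen, so its direction was not shared across tissues.

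The testes of the Tug1-/- group also differed in markers of several cell types. The sum of 5 Leydig-cell genes was 483 TPM in wild-type, 742 TPM in knockout and 639 TPM in rescue testes, and all 5 were higher in Tug1-/-, 3 of them by 1.5-fold. The 8 macrophage genes summed to 113, 151 and 150 TPM. Of the erythroid genes, 4 of 5 past the filter were 1.5-fold lower than wild type in Tug1-/- and 4 of 5 in rescue testes (median log2 ratios -0.84 and -0.78), and the 6 genes summed to 47.7, 40.1 and 40.3 TPM. The 5 Sertoli-cell genes summed to 895, 867 and 885 TPM, although 4 of the 5 were higher than wild type in each of the other groups, with median log2 ratios of 0.26 in Tug1-/- and 0.46 in rescue. The 5 spermatid genes summed to 49235, 46767 and 45544 TPM and the 5 T-cell genes to 8.33, 7.17 and 7.85 TPM. Their part in the Phlda3 difference was not tested.

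The rescue samples show whether gene levels lay nearer to wild type in Tug1-/- mice that carried the transgene. Rescue mice differed from Tug1-/- mice in the transgene and in CAGs-rtTA3. They were also fed doxycycline, which is not described for the Tug1-/- or wild-type testes. The parts of transgene RNA, CAGs-rtTA3, strain and drug cannot be told apart. Tug1 in rescue testes also stayed far below its wild-type level, as given above, so Tug1 RNA at that level was not tested. Phlda3 was at 4.69 TPM in both Tug1-/- and rescue testes (log2 ratio 0.00), and rescue over wild type gave 0.69. The 2 comparisons with wild type share the wild-type samples, and the 2 with Tug1-/- share the Tug1-/- samples. In rescue over Tug1-/- testes, 0 of 9 genes past the filter were 1.5-fold apart in either direction, where 1.04% of 21606 genes were 1.5-fold higher and 2.56% lower. In rescue over wild type 1 of 9 was higher and 0 lower, where 2.27% of 21705 genes were higher and 4.33% lower.

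The rescue means of the other genes were 13.5 TPM for Cdkn1a, 111 for Mdm2, 11.5 for Ccng1, 9.15 for Bax, 15.5 for Trp53inp1, 4.57 for Bbc3, 33.5 for Sesn2, 0.244 for Eda2r and 7.68 for Zmat3. The largest log2 ratio of rescue over Tug1-/- was that of Ccng1, -0.36, which placed its rescue mean below the wild-type mean of 13.4 TPM as well. Sesn2 (0.22) and Bbc3 (0.21) were higher in rescue than in Tug1-/- testes, in the same direction as Tug1-/- over wild type. By any amount, 4 of 9 genes were higher in rescue over Tug1-/- (52.8% of all genes) and 6 of 9 in rescue over wild type (60.4% of all genes).

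**Figure D3:**
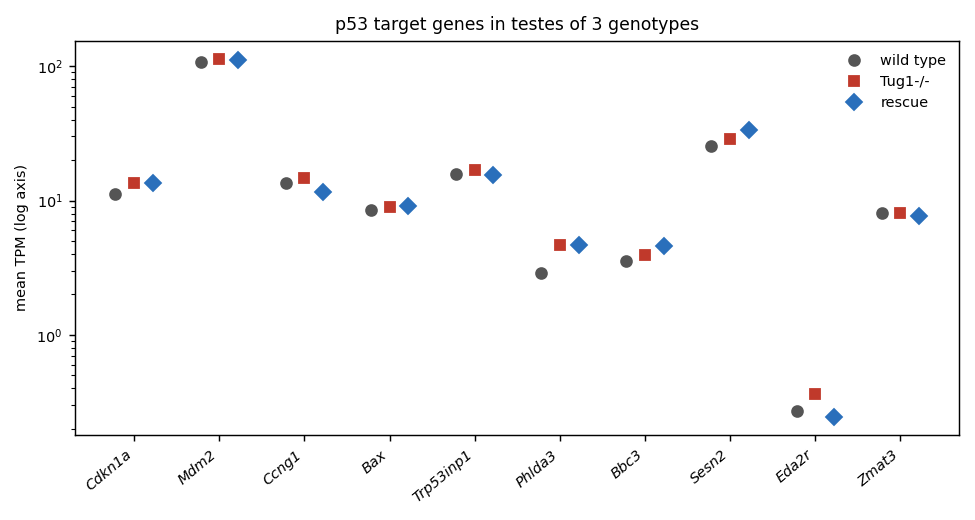
Mean level of the 10 genes in testes of the 3 genotypes (wild type, Tug1-/- and rescue), in TPM on a log axis. Phlda3 is at 2.88 TPM in wild type and 4.69 TPM in each of the other groups, Ccng1 has its lowest mean in rescue testes, and Eda2r lies under 1 TPM in all 3. Points are the authors' means, with no error shown.

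In eyes, heart and spleen the ratios of all genes were themselves off centre, with medians of -0.11, 0.10 and -0.11, so the genes are best read against that shift. In eyes 4 of 10 were higher in Tug1-/-, against 27.6% of 19203 genes, and 7 of 10 lay above the median of all genes. In heart 7 of 10 were higher against 75.3% of all genes, and 5 of 10 lay above that median. In spleen 3 of 10 were higher against 29.6% of 16810 genes, and 6 of 10 lay above it. None of the 10 passed 1.5-fold in eyes (2.84% of genes higher and 3.82% lower) or spleen (4.99% higher and 4.37% lower). With the median set to 0, the share of the 1.5-fold genes that were higher went from 42.6% to 59.6% in eyes, from 47.9% to 29.9% in heart and from 53.3% to 70.3% in spleen. In the remaining tissues 2 of 9 were higher in brain (39.8% of all genes), 6 of 8 in liver (52.7%) and 6 of 10 in MEFs (59.7%). Above the median of all genes lay 3 of 9 in brain, 5 of 8 in liver and 3 of 10 in MEFs.

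Spleen showed small differences in these genes next to large ones in other lists. The 6 erythroid genes summed to 25103 TPM in wild-type and 45199 TPM in knockout spleen, and all 6 were 1.5-fold higher. The 8 proliferation genes, such as Mki67 and Top2a, summed to 567 and 920 TPM, with 6 of 8 past 1.5-fold. The 4 B-cell genes summed to 4310 and 3237 TPM. In eyes the erythroid sum was 699 and 2179 TPM and the macrophage sum 857 and 1108 TPM. Their part in the values of the 10 genes was not tested.

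Trp53, which encodes p53 itself, was measured beside its targets. Its mean was highest in MEFs, with 96.1 TPM against 134 TPM in Tug1-/- (log2 ratio 0.48, 1.39-fold), and 81.9 and 79.3 TPM in spleen. In the other 6 tissues its log2 ratio lay between -0.13 in brain and 0.15 in testes. Cdkn1a in the same MEFs had a log2 ratio of -0.05 and Mdm2 of 0.02. There 7 of 8 proliferation genes were higher by any amount (59.7% of all genes), with sums of 416 and 489 TPM, and 0 passed 1.5-fold. Of 7 macrophage genes past the filter, 2 were 1.5-fold higher (3.09% of all genes) and 1 lower (3.34%). The part of these lists in the MEF values was not tested. Mdm4, the partner of Mdm2 that blocks p53, had log2 ratios between -0.19 in eyes and 0.20 in heart.

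Of 12 upstream regulators and relatives of p53, 1 of 12 past the filter was 1.5-fold lower in testes (Trp63, from 1.81 to 1.05 TPM), where 2.9% of all genes were lower, and 2 of 10 were higher in spleen, where 4.99% were. Those were the checkpoint kinases of DNA damage, Chek1 at 4.76 and 8.89 TPM (log2 ratio 0.89) and Chek2 at 15.0 and 24.4 TPM (log2 ratio 0.70). In the same spleens 6 of 8 proliferation genes (median log2 ratio 0.82) and 6 of 6 erythroid genes were 1.5-fold higher, and their part in the Chek1 and Chek2 values was not tested. In the other 6 tissues 0 were past 1.5-fold. In rescue testes Trp63 was at 0.866 TPM and again 1.5-fold below wild type, but it passed the filter there through its wild-type mean alone.

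A further 24 known p53 targets gave few differences of this size. In testes 2 of 20 past the filter were lower (2.9% of all genes), Perp, a protein of cell junctions, from 8.04 to 3.98 TPM, and Ddit4l from 26.6 to 16.7 TPM (log2 ratio -0.67). In liver 1 of 15 was lower (2.25% of all genes), Gadd45a, a stress gene of growth arrest, from 7.63 to 3.70 TPM (-1.03), in the tissue where Cdkn1a was higher. In MEFs 1 of 24 was higher (3.09% of all genes), Gdf15, a secreted stress cytokine, at 8.28 and 17.7 TPM (1.09), and 1 was lower (3.34%), Perp, at 57.1 and 36.9 TPM (-0.63). In spleen 2 of 21 were lower (4.37% of all genes), Plk2 (-0.72) and Ak1 (-0.60), and in brain, eyes, heart and prostate 0 were past 1.5-fold. In rescue testes 2 of 20 were lower than in Tug1-/- (2.56% of all genes) and 3 of 21 lower than in wild type (4.33%). Perp stood at 1.72 TPM there, a log2 ratio of -1.17 to Tug1-/- and of -2.16 to wild type. Fas, a death receptor, was at 2.63 TPM in wild type, 2.21 in Tug1-/- and 1.37 in rescue testes, and Ddit4l was at 14.4 TPM in rescue.

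**Figure D4:**
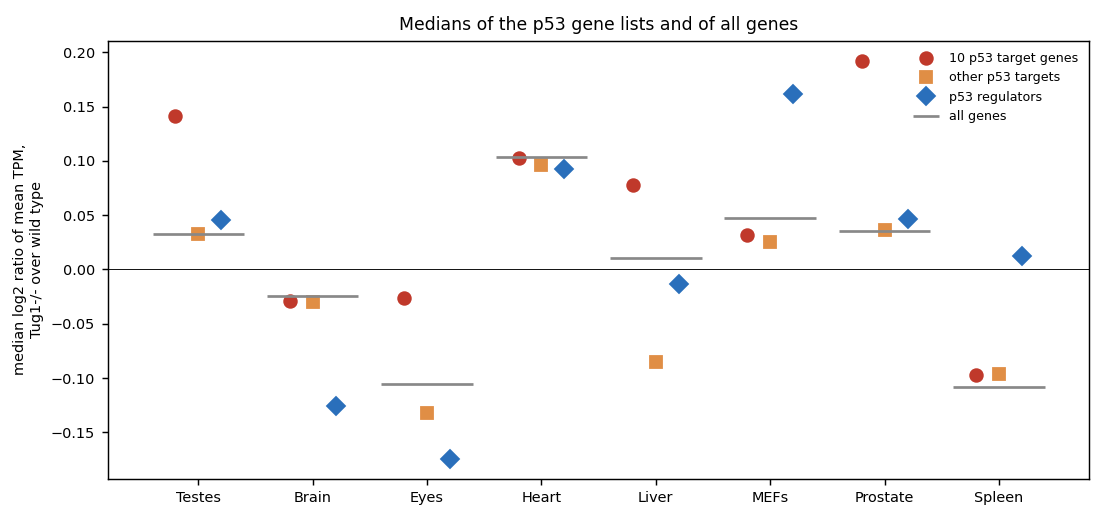
Median log2 ratio of mean TPM, Tug1-/- over wild type, for the 10 p53 target genes, 24 other p53 targets and 12 p53 regulators that passed the filter in each tissue, with a grey line for the median of all genes. The 10 genes stand furthest above the grey line in prostate (0.19 against 0.04) and testes (0.14 against 0.03), where the other targets lie at 0.04 and 0.03.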

How the data were processed

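RNA was poly(A)-selected (TruSeq v2) and sequenced as paired ends. Per the labels and the study's methods, the authors used CASAVA 1.8.2, aligned reads to mm10 with STAR, summed unique alignments over each gene by featureCounts, left out genes that reached 3 reads in no replicate and ran DESeq2. The strand setting and versions of the other tools are not given in the sources used here. The deposited tables give the authors' mean TPM per group, which was used, and for tissues other than testes the authors' mean normalized count over both genotypes (a signal averaged over libraries), used for read support alone. Their other columns hold the authors' own fold changes, standard errors, statistics, p-values and significance calls, and were not used. TPM keeps no depth, so depth per sample is unknown. F1 hybrid testes (6 samples) were not analysed here.

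Samples were grouped by their labels. log2 ratios of means used a pseudocount of 0.1 TPM, a minimum of 1 TPM for the average of both means and a limit of 1.5-fold, with no test, since the authors' test columns were set aside and no values of single samples were read. The 10 genes and the lists (p53 regulators, other p53 targets, proliferation, macrophage, erythroid, B-cell, T-cell, Leydig, Sertoli and spermatid genes, tissue markers) were chosen with earlier results of these data known. All 10 genes, Trp53 and Mdm4 are named, with at most 3 genes per p53 list and comparison past 1.5-fold and the 3 genes most correlated with Cdkn1a. The Pearson correlations used log2(TPM + 1). Promoter windows come from RefSeq (GRCm38.p6). The ratio step was tested on simulated data. Python 3.11.15, numpy 2.4.6, pandas 2.3.3 and matplotlib 3.10.9 were used.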

Additional observations from a re-analysis of the deposited data

How the results depend on the processing

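The 4 differences past 1.5-fold between Tug1-/- and wild type, and Phlda3 in rescue over wild type, kept their direction under every alternative that gave a value, and none passed 2-fold, so that at 2-fold the count of genes was 0 in testes, heart, liver, prostate and rescue over wild type. With a pseudocount of 1 TPM the count was 0 in testes, liver, prostate and rescue over wild type, since Phlda3 (0.55 in both testes comparisons), Cdkn1a in liver (0.56) and Sesn2 in prostate (0.58) came to lie under log2(1.5). With a minimum of 5 TPM it was 0 in testes, liver and rescue over wild type, where the gene concerned was no longer included. Sesn2 in prostate also lay under 1.5-fold after centring on the median of all genes (0.57, count 0) and over protein-coding genes alone (0.55, count 0). Cdkn1a in heart stayed past 1.5-fold at each alternative pseudocount, minimum and scaling.

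At a limit of 25% (the higher mean over the lower) the count was 1 in brain, 1 in eyes, 2 in liver, 2 in prostate, 1 in rescue over Tug1-/- and 3 in rescue over wild type. Centring moved the median over the genes by more than 0.1 in eyes (to 0.079), heart (to -0.00073) and spleen (to 0.011). Without the gene of the largest change no median moved by that much, and of 80 recomputed counts 60 stayed within 1.5 times. The number of genes highest in MEFs was also 9 over protein-coding genes. Leaving out single replicates was not run for the same reason that pairing was not. No paired analysis was possible because the tables read here hold group means and no values of single samples. The mean normalized count sets the support of a level, 57.5 for Cdkn1a in liver and 8.54 for Eda2r in brain.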
